A study of Mus musculus with 267 samples.

Results

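Chromatin at 39 interferon-stimulated genes (ISGs) was followed in bone marrow-derived macrophages (BMDMs) before and after interleukin-4 (IL-4). A region or transcription factor peak was assigned to an ISG when its centre lay within 25 kb of the start of that gene (mm10, GENCODE vM21) and no other protein-coding gene start was nearer. Regions within 1 kb of the start were treated as promoters and the others as distal. The genes were grouped by role into 24 antiviral effectors, 6 sensors and regulators, 7 guanylate binding proteins and immunity-related GTPases (GBPs and IRGs) and 2 chemokines. Of all regions in the region table of each strain, the ISGs held 66 of 54755 (0.121%) in SPRET, 77 of 60175 (0.128%) in PWK, 106 of 54022 (0.196%) in BALB, 115 of 68932 (0.167%) in NOD and 114 of 67742 (0.168%) in C57. The table of the C57 time course held 124 of 77955. Cxcl9, a chemokine for T cells, had no region in any of these tables and is described only by factor peaks.

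BMDMs were grown with M-CSF from female mice aged 8 to 12 weeks of the strains SPRET/EiJ (SPRET), PWK/PhJ (PWK), BALB/cJ (BALB), NOD/ShiLtJ (NOD) and C57BL/6J (C57). Cells carried no engineered allele and were left untreated (basal) or given IL-4 at 20 ng/mL for 24 h, and in C57 also for 1 or 6 h. Chromatin immunoprecipitation with sequencing (ChIP-seq) measured H3K27ac (24 libraries), a mark of active promoters and enhancers, RNA polymerase II (Pol II, 31), H3K4me2 (20) and H3K4me3 (20), with 2 libraries per group for the histone marks and 1 to 4 for Pol II. The labels call replicates biological but do not tie them to animals, so p-values measure the spread between libraries. Peaks of the factors STAT6, EGR2, PPARg, PU1 and CEBPb were available as 1 reproducible list per group. The promoters of 8 of 8 macrophage markers carried basal H3K27ac in C57 (190 to 1565 normalized tags), whereas B cell, dendritic cell and fibroblast markers with a promoter region lay between 0.695 and 2.09, T cell and erythroid markers had no promoter region, and the neutrophil gene S100a8 was at 37.4.

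ISGs are switched on when type I interferons activate the complex ISGF3, which binds the interferon-stimulated response element (ISRE), and some also respond to interferon gamma through gamma-activated sequences (GAS). Macrophages keep many of these genes at a low tonic level through constant autocrine interferon, and their products block viral replication, sense viral nucleic acid and attack intracellular vacuoles. IL-4 signals through STAT6, which binds a sequence much like GAS with a wider gap, and drives the alternatively activated macrophage state.

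The letters of the ISRE core (GAAANNGAAA), GAS (TTCNNNGAA) and the STAT6 site (TTCNNNNGAA) were searched on both strands, with overlapping matches counted. In RefSeq promoter sequences (GRCm38.p6, 250 bases before to 50 after the RefSeq start) the ISRE core was found in 18 of the 31 ISGs with an entry (58.1%) and in 3.44% of all 32851 promoters. GAS matched 9 of 31 (29.0%, against 8.30% of all) and the STAT6 site 4 of 31 (12.9%, against 6.95%). The RefSeq start used lay 2956 bp from the GENCODE start for Gbp5 and 15359 bp for Irgm2. The Irgm2 region 15254 bp downstream, counted as distal by the GENCODE start, thus lies at its RefSeq promoter. In the central 300 bases of regions matched across the strains, the ISRE core was present in 11 of 23 ISG promoter regions (47.8%, against 2.34% of all promoter regions) and in 7 of 26 ISG distal regions (26.9%, against 4.47% of distal regions). The STAT6 site was present in 3 of 26 ISG distal regions (11.5%, against 8.59%). Among the ISG regions at which H3K27ac fell in the fit over strains, 5 of 12 promoters (41.7%) and 2 of 14 distal regions (14.3%) held the ISRE core. The region with the largest fall, 12747 bp downstream of Ifitm3, held none of these motifs. The sequences below are examples that hold a motif: a pair of promoters at which a mark fell, and distal regions that fell or rose. Capitals mark the ISRE core on either strand in the first 4 and the STAT6 site in the last 3. The promoters are printed in the direction of the gene, and the sequences are from the mm10 reference and not from the other strains.
Oas3 promoter (chr5:120777610-120777909, minus strand): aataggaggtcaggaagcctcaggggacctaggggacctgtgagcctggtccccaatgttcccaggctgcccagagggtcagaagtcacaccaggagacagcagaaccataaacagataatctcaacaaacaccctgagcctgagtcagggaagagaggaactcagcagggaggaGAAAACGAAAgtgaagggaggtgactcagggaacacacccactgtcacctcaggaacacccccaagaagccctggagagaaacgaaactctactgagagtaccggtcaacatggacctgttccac
Cxcl10 promoter (chr5:92348840-92349139, minus strand): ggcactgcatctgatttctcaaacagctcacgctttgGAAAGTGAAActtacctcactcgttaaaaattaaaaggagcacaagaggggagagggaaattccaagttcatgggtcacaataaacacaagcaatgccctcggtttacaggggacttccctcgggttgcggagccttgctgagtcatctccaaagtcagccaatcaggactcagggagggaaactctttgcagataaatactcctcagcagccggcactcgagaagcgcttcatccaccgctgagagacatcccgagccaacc
Cxcl10 distal region 19713 bp upstream (chr5:92368453-92368752, plus strand): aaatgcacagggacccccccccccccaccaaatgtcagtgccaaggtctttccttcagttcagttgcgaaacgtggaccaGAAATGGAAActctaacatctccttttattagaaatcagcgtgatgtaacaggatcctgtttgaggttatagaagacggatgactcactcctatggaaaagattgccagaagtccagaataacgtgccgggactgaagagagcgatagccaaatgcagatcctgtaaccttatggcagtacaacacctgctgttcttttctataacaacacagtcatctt
Usp18 distal region 5461 bp downstream (chr6:121251218-121251517, plus strand): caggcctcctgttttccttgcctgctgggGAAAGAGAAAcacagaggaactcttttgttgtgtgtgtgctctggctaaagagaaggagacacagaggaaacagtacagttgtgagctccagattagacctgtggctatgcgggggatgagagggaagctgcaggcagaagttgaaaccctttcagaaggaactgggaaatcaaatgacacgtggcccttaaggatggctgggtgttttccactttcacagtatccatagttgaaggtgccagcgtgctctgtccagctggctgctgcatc
Usp18 distal region 15752 bp upstream (chr6:121230005-121230304, plus strand): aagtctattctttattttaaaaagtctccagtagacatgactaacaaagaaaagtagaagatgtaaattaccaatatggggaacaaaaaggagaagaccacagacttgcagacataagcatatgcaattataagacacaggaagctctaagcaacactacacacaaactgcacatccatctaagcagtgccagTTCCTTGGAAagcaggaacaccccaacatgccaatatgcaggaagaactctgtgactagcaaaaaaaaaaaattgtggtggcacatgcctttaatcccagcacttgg
Ifitm3 distal region 11250 bp downstream (chr7:140999371-140999670, plus strand): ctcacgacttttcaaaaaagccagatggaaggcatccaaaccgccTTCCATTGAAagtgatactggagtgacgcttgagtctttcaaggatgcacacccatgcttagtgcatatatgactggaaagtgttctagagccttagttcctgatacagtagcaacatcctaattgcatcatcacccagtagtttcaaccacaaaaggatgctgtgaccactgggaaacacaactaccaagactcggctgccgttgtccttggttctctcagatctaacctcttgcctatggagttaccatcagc
Rtp4 distal region 2466 bp upstream (chr16:23517676-23517975, plus strand): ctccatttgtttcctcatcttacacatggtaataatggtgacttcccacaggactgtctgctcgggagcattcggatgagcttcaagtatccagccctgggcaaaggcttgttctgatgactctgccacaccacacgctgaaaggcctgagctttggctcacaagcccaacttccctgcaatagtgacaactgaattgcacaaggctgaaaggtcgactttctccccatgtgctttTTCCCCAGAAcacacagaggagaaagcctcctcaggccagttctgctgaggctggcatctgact

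In untreated C57 cells most ISG promoters carried more H3K27ac than the median promoter, by the mean of 2 libraries. These libraries differed, with medians of 316 in library 1 and 94.1 in library 2 over the 23 ISG promoter regions matched across the strains. Values are normalized tags, that is tags in the 1000 bp region per 10000000 tags of the library. A promoter region was present for 33 of the 39 genes in C57 and absent for Ifit1, Ifit3, Ifi44, Igtp, Irgm2 and Cxcl9, and the median of the 33 was 188 against 90.6 over all promoter regions. The highest means were those of Irgm1, an IRG that guards against intracellular pathogens (778), Ifitm3, which blocks entry of enveloped viruses (705), and Parp14, an ADP-ribosyltransferase (648). The lowest were Rtp4 (6.48), Gbp5 (22.99), a GBP that promotes inflammasome assembly, and Cxcl10 (29.3), the chemokine that recruits CXCR3-bearing T cells. The promoter of Irgm1 was also the highest ISG promoter in the tables of BALB (602), NOD (530), PWK (236) and SPRET (464). The median ISG promoter was at 112 in BALB (35 ISG promoters, all promoters 104), 100.7 in NOD (34, 89.6), 64.8 in PWK (29, 103) and 53.2 in SPRET (24, 113). Each strain has its own table and its own set of regions, so these levels were not tested against each other.

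**Figure D1:**
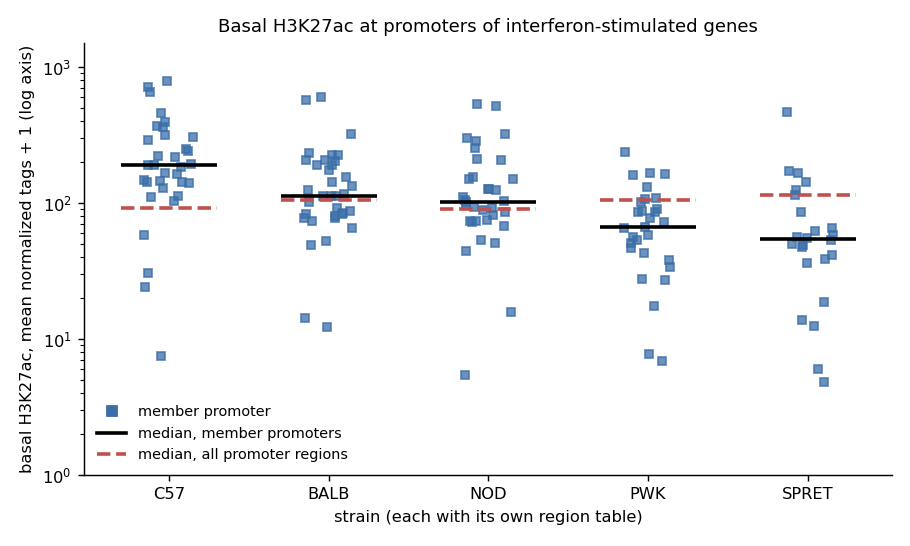
Basal H3K27ac (mean of 2 libraries, normalized tags + 1, log axis) at the promoter region of each ISG in the 5 strains; squares are genes, solid lines the ISG median and dashed lines the median over all promoter regions. The ISG median lies above the dashed line in C57, BALB and NOD and below it in PWK and SPRET. At ISG promoter regions matched across the strains, basal C57 libraries 1 and 2 had medians of 316 and 94.1.

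Replicate libraries of C57 differed at ISGs far more than at other regions. At the 49 ISG regions that could be matched in all 5 strains, the basal C57 library 1 was above library 2 at 42, with a median log2 difference of 1.42 against 0.12 over all 30552 matched regions. After 24 h of IL-4 library 1 was again above library 2 at 42 of 49 regions, with a median difference of 1.24 against 0.12. Libraries of other strains differed less at ISGs in the basal state (median 0.09 to 0.52, against -0.08 to 0.24 over all regions). At 24 h the medians were 1.08 in BALB (all regions 0.82), 0.99 in NOD (0.39), 0.88 in PWK (0.32) and 0.57 in SPRET (0.26). Libraries with the same number moved together. Within a number the ISG median changed by -1.07 in C57 library pair 1 and by -1.10 in pair 2 (all regions -0.56 and -0.58). The pairs of the other strains were further apart. They were at -0.03 and -0.37 in SPRET (all regions 0.04 and -0.32) and -0.19 and -0.77 in PWK (-0.04 and -0.48). NOD was at -0.58 and -1.09 (-0.25 and -0.40) and BALB at -0.62 and -1.38 (-0.08 and -0.62). The share of tags inside regions fell as well, from 69.7% and 63.8% in the basal C57 libraries to 46.4% and 41.2% at 24 h, and it was 57.1% and 28.7% in the BALB libraries at 24 h. Its part in the differences below was not tested beyond the second scaling given there.

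IL-4 for 24 h lowered H3K27ac at 26 of the matched ISG regions and raised it at 2. A single model over the 5 strains (limma on log2(normalized tags + 1), Benjamini-Hochberg adjustment over all 30552 matched regions) called 26 of 49 regions of 29 ISGs lower, against 28.1% of all regions, and 2 higher, against 7.27% of all. Same-numbered libraries moved together, and with the replicate number as a block 35 ISG regions were lower and 3 higher, against 45.6% and 11.5% of all regions. The lower regions of the fit without the block were 12 of 23 promoters and 14 of 26 distal regions and belonged to 16 genes. SEs, adjusted p-values and calls of single regions below are from the fit without the block unless the block is named. The further regions called only with the block are not named here. The median log2 difference of the ISG regions was -0.77, against -0.32 over all regions. With median-ratio scaling, which sets the typical region to no change, the median was -0.45 against 0.01, and 14 ISG regions remained lower (5 promoters), against 13.1% of all regions. The antiviral effectors held 17 of the lower regions out of 30, the sensors and regulators 5 of 11, the GBPs and IRGs 2 of 5 and Cxcl10 2 of 3. Both regions that rose in the fit without the block belonged to Usp18, the isopeptidase that removes ISG15 and dampens the type I interferon receptor. Overlapping windows share tags at 3 pairs of regions (Oas3, Ifitm3 and Irf7), and 10 genes (Ifit1, Isg15, Oas1a, Oasl2, Ifi44, Zbp1, Gbp2, Ifi47, Igtp and Cxcl9) had no matched region.

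**Figure D2:**
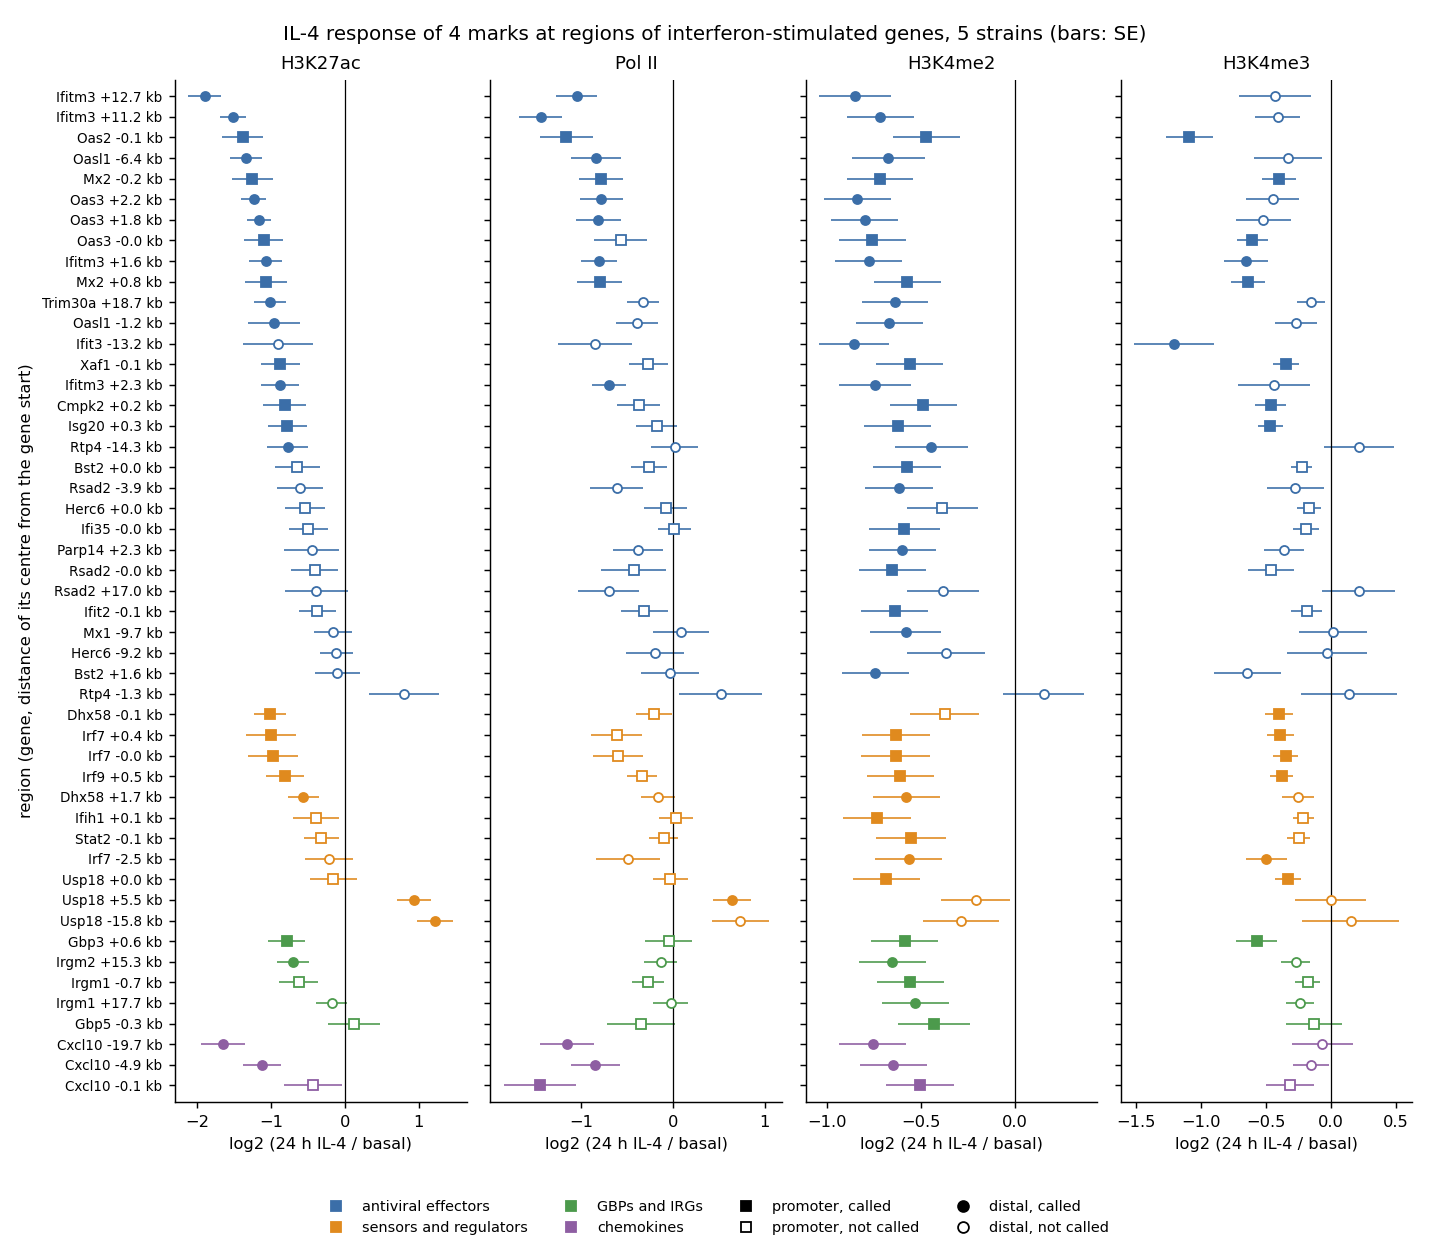
Log2 difference (24 h IL-4 against basal, mean over 5 strains, bars SE) at the 49 matched ISG regions for H3K27ac, Pol II, H3K4me2 and H3K4me3; squares are promoters, circles distal regions, and filled symbols pass an adjusted p of 0.05 in limma. For H3K27ac, in the fit without the replicate block, 26 regions are called lower and the 2 called higher are both distal regions of Usp18.

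Among promoters the largest falls were at the 2'-5' oligoadenylate synthetases, which activate RNase L, and at the GTPase Mx2. The Oas2 promoter (60 bp upstream, chr5:120749413-120750413) held 364 and 209 normalized tags in basal C57 libraries and 136 and 64.3 after IL-4. In BALB it held 212 and 238 before and 75.3 and 43.8 after, and in NOD 190 and 217 before and 146 and 67.0 after. Basal and treated libraries did not overlap in these strains. In PWK the values were 84.1 and 45.4 before and 75.4 and 13.4 after, which overlap, and in SPRET 41.0 and 52.0 before and 14.99 and 17.2 after. The fitted difference was -1.38 (SE 0.27, adjusted p = 0.000711), and negative in 5 of 5 strains. The 3 next promoters were Mx2 with its centre at -201 bp (-1.25, SE 0.28, adjusted p = 0.00174), Oas3 at -48 bp (-1.10, SE 0.26, adjusted p = 0.00294) and Mx2 at 836 bp (-1.06, SE 0.29, adjusted p = 0.00735). At the Oas3 promoter, whose ISRE core lies 75 bases before the RefSeq start in the sequence above, C57 libraries went from 441 and 165 to 161 and 60.4, so that the treated library 1 lay close to the basal library 2. All 4 stayed lower with median-ratio scaling (adjusted p 0.00473 to 0.0302).

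Falls of H3K27ac at promoters reached other functional classes. Dhx58, a cytosolic RNA sensor, fell by 1.01 (SE 0.22, adjusted p = 0.00143), and Irf7, the master regulator of interferon genes, fell by 1.00 at 444 bp and 0.97 at -12 bp (overlapping windows, adjusted p 0.0296 and 0.0319). Irf9, the DNA-binding subunit of ISGF3, fell by 0.80 (adjusted p = 0.0192). The antiviral genes Xaf1 (-0.88), Cmpk2 (-0.82) and Isg20 (-0.78) and the GBP Gbp3 (-0.79) were lower with adjusted p of 0.0144 to 0.0313, and these 4, Irf7 and Irf9 lost the call with median-ratio scaling (adjusted p 0.0768 to 0.197). The promoters of Bst2, Herc6, Ifi35, Rsad2, Ifit2, Ifih1, Stat2, Usp18, Irgm1 and Cxcl10 had differences of -0.64 to -0.16 that did not pass the test without the block. Gbp5 was the only matched ISG promoter with a positive value, 0.12 (SE 0.35, adjusted p = 0.808), which turned negative when any of 6 single libraries was left out (lowest -0.09). This region lay near the GENCODE start of Gbp5, which is 2956 bp from its RefSeq start.

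The largest falls among all matched ISG regions were distal. Ifitm3 led, at a region 12747 bp downstream of its start (chr7:140997523-140998523). It held 48.2 and 74.2 normalized tags in basal C57 and 11.9 and 19.7 after IL-4, 83.0 and 137 against 21.8 and 20.0 in BALB, and 80.6 and 86.5 against 23.2 and 29.8 in NOD. PWK went from 73.8 and 57.2 to 11.5 and 10.5 and SPRET from 17.95 and 12.5 to 10.6 and 3.23, so that the basal and treated libraries were apart in 5 of 5 strains. The difference was -1.90 (SE 0.22, adjusted p = 3.77e-06). A second region 11250 bp downstream, with the STAT6 site shown above, fell by 1.51 (SE 0.18, adjusted p = 5.44e-06) and its libraries were likewise apart in every strain, for example 132 and 144 against 47.5 and 56.4 in C57 and 35.05 and 27 against 14.1 and 11.8 in SPRET. The Cxcl10 region 19713 bp upstream, with the ISRE core shown above, went from 107 and 59.2 to 21.2 and 5.25 in C57 and from 8.55 and 9.22 to 7.93 and 8.62 in SPRET. Its mean difference was -1.65 (SE 0.30, adjusted p = 0.000307). The Oasl1 region 6399 bp upstream, near a gene for an OAS-like protein that restrains Irf7 translation, fell by 1.33 (SE 0.22, adjusted p = 0.000125), from 139 and 117 to 38.4 and 34.8 in BALB.

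Usp18 held both regions that rose in the fit without the block. At its region 15752 bp upstream (chr6:121229654-121230654) C57 libraries rose from 9.50 and 4.28 to 12.7 and 22.3 normalized tags and PWK libraries from 6.87 and 5.48 to 19.5 and 15.3. BALB went from 5.88 and 5.36 to 14.3 and 17.6, NOD from 12.5 and 19.8 to 26.04 and 28.1 and SPRET from 11.97 and 3.29 to 22.9 and 15.1. Treated libraries were above basal ones in each strain, and the difference was 1.22 (SE 0.24, adjusted p = 0.000778). The region 5461 bp downstream rose by 0.94 (SE 0.23, adjusted p = 0.00388), from 8.14 and 13.6 to 18.7 and 40.03 in C57 and from 53.0 and 52.7 to 150 and 89.4 in SPRET. In PWK this region overlapped between conditions (20.6 and 29.8 against 17.5 and 48.7). The Usp18 promoter itself had a difference of -0.16 (SE 0.32, adjusted p = 0.720). A region 1261 bp upstream of Rtp4, a receptor chaperone with antiviral activity, was positive in 5 of 5 strains (mean 0.80, SE 0.47). It did not pass the test without the block (adjusted p = 0.191).

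**Figure D3:**
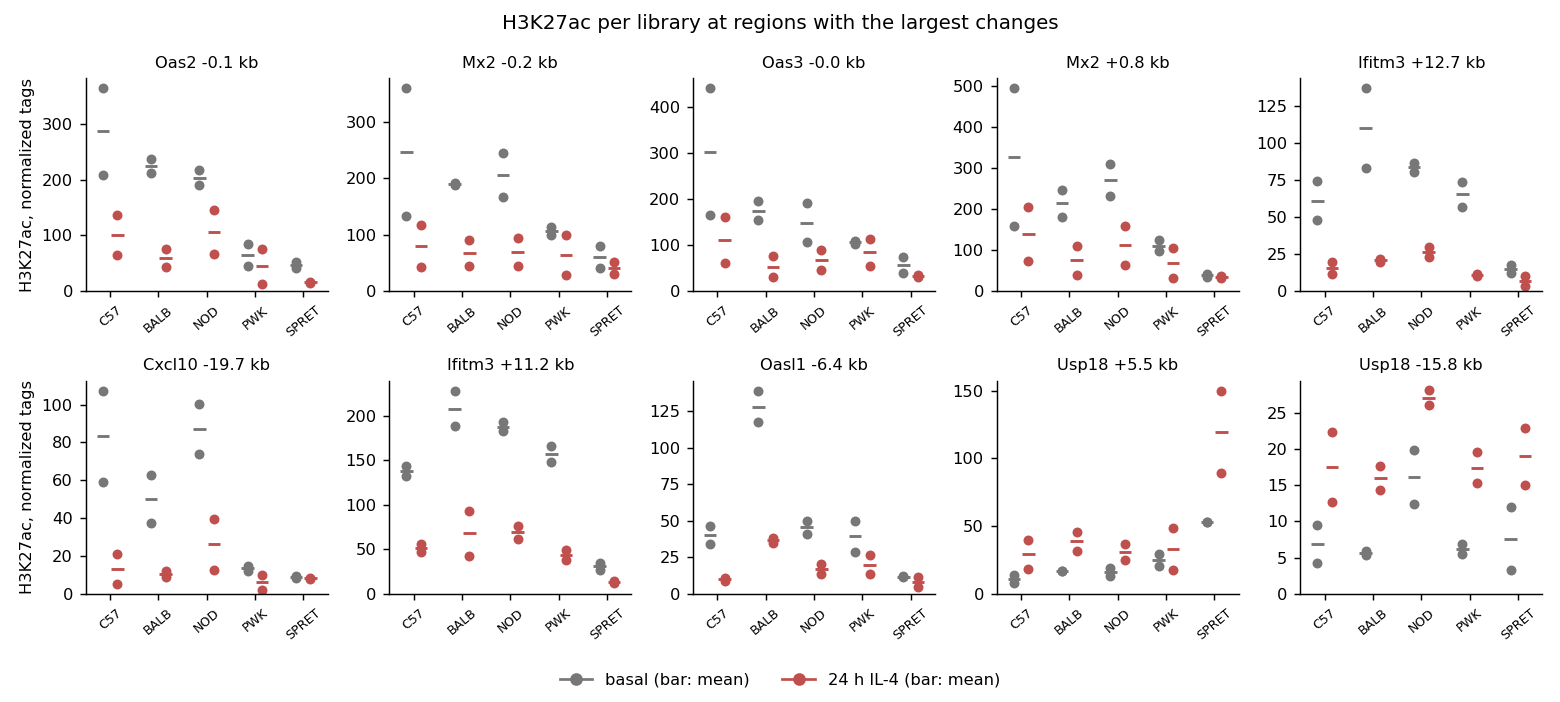
H3K27ac in normalized tags per library (grey basal, red 24 h IL-4, bars the mean of 2 libraries) by strain, at the 4 ISG promoters and 4 distal regions with the largest falls and the 2 Usp18 regions that rose; kb give the distance of the region centre from the gene start. The Ifitm3 regions separate basal from treated libraries in each strain, while at the Oas and Mx2 promoters the basal C57 libraries lie far apart.

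Pol II fell at 13 regions of the antiviral effectors and Cxcl10. In the model over 5 strains 13 of 49 ISG regions were lower, against 7.16% of all regions, and 1 was higher, against 7.58%. The median was -0.34 against 0.02 over all regions. The Pol II libraries with the same number moved together, and with the replicate number as a block 27 ISG regions were lower and 2 higher, against 16.2% and 11.03% of all regions in that fit. Without the BALB 24 h library 2 or the NOD 24 h library 2 the calls dropped to 9 and 8. H3K27ac and Pol II were both lower at 12 regions, and the 13 regions belonged to 6 genes: Ifitm3, Mx2, Oas2, Oas3, Oasl1 and Cxcl10. At the Ifitm3 region 11250 bp downstream Pol II was at 22.3 to 60.6 in the 4 basal C57 libraries and 12 to 15.9 in the 3 treated ones, and at 9.90 to 16.5 against 0.92 to 4.24 in SPRET. The groups were apart in both strains, and the difference was -1.44 (SE 0.24, adjusted p = 5.64e-05). At the Oas2 promoter the difference was -1.16 (SE 0.29, adjusted p = 0.00514), with basal C57 libraries between 151 and 194 and treated ones at 118, 182 and 32.1, which overlap. The Cxcl10 promoter fell by 1.45 (SE 0.39, adjusted p = 0.0108) in Pol II, while its H3K27ac difference of -0.43 did not pass the test without the block (adjusted p = 0.407). Its counts were low, at 24.0 and 17.1 in basal NOD and 10.7 and 0 after IL-4. The Usp18 region 5461 bp downstream was the one that rose without the block (0.65, SE 0.20, adjusted p = 0.0286).

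H3K4me2, a mark of promoters and enhancers, was lower at 42 of 49 ISG regions and higher at 0, against 72.5% lower and 1.75% higher among all regions, with medians of -0.61 and -0.53. With median-ratio scaling 1 ISG region stayed lower (0.916% of all regions). H3K4me3, the promoter mark, was lower at 16 ISG regions, 13 of them promoters, and higher at 0, against 10.3% lower and 4.00% higher among all regions. The count was 10 without the C57 basal library 1, 29 without the NOD 24 h library 1 and 8 without the NOD 24 h library 2. It was 5 with median-ratio scaling (1.82% of all regions). The largest H3K4me3 fall at a promoter was at Oas2 (-1.09, adjusted p = 0.000161), from 384 and 299 to 222 and 151 in C57 and from 241 and 270 to 87.6 and 89.8 in BALB. Its treated libraries were below the basal ones in 4 of 5 strains, with overlap in PWK (195 and 95.2 against 144 and 35.6).

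By strain, the ISG regions were below 0 at 45 of 49 in C57, BALB and NOD, at 40 in PWK and at 34 in SPRET. The median H3K27ac difference of the ISG regions was -0.20 in SPRET (all regions -0.15), -0.43 in PWK (-0.26), -0.80 in NOD (-0.32), -0.99 in BALB (-0.35) and -1.08 in C57 (-0.57). These medians depended on the library pair, as given above, and in pair 2 the lowest was that of BALB (-1.38) and not of C57 (-1.10). In 30 regions the difference was negative in all 5 strains, and in 3 it was positive in all 5 (both Usp18 regions above and the Rtp4 region 1261 bp upstream). Counts of this kind were not made over all matched regions, whose median was below 0 in each strain as well. A test of whether the response differed between strains (limma F test) called 0 of 30552 regions (0%), and so none of the 49, with 380 of all regions and 1 ISG region at an unadjusted p under 0.05, and edgeR called 0 as well (331 at an unadjusted p under 0.05). With the replicate number as a block 571 regions were called, 3 of them ISG regions. These were the Cxcl10 region 19713 bp upstream (adjusted p = 0.0101), with differences of -0.09 in SPRET, -1.34 in PWK, -1.90 in NOD, -2.12 in BALB and -2.78 in C57, the Ifitm3 region 1574 bp downstream (adjusted p = 0.0176), at -1.67 to -1.07 in the other four strains and 0.38 in SPRET, and the Irf7 region 2534 bp upstream (adjusted p = 0.0310), at -1.17 in C57 and 0.96 in SPRET. The ISG region with the smallest p without the block was the Oas3 region 2185 bp downstream (adjusted p = 1.00), which went from 102 and 144 to 31.4 and 34.1 in C57 and from 131 and 134 to 107 and 109 in SPRET.

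**Figure D4:**
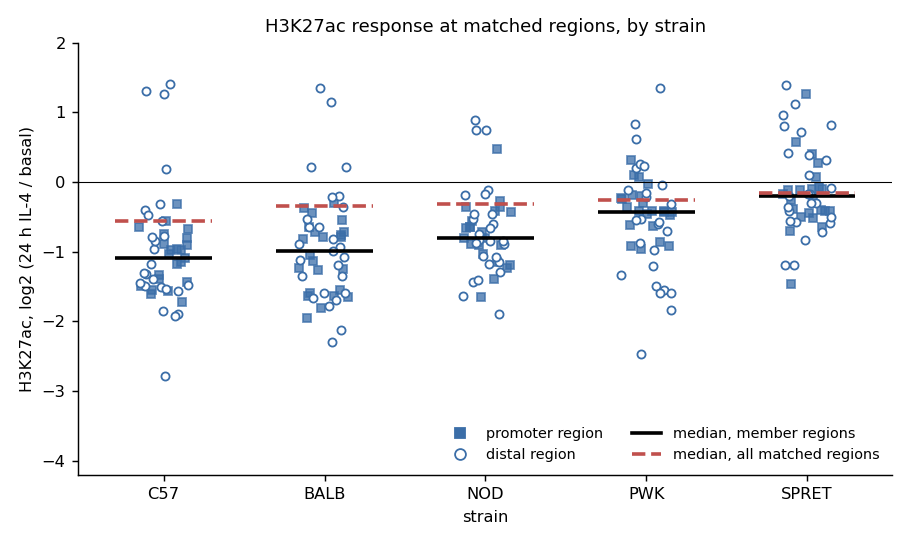
H3K27ac log2 difference (24 h IL-4 against basal) of the 49 matched ISG regions in each strain; squares are promoters, open circles distal regions, solid lines the ISG median and dashed lines the median over all matched regions. The ISG median runs from -1.08 in C57 to -0.20 in SPRET and lies below the dashed line in each strain. Single library pairs gave -0.62 or -1.38 in BALB (all regions -0.08 or -0.62) and -0.03 or -0.37 in SPRET (0.04 or -0.32).

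Counts within each strain's own table, which keep regions found in 1 strain, used a fold rule with no test: means + 1 at least 2.5-fold apart with at least 16 normalized tags. In C57 28 ISG regions were lower and 4 higher, against 7.55% and 3.46% of all regions. BALB had 24 lower and 0 higher (5.13% and 2.84%), NOD 11 and 1 (5.14% and 3.24%), PWK 6 and 1 (3.01% and 3.10%) and SPRET 1 and 0 (0.939% and 2.64%). Ifitm3 was lower in 4 strains (not SPRET) and Oas2 in C57, BALB and SPRET. Cxcl10, Ifi47, Irgm2, Isg20, Mx2 and Oasl1 were lower in C57, BALB and NOD, and Oas3 in C57, BALB and PWK. Irgm1 and Usp18 were the genes with a higher region in 2 strains. With median-ratio scaling the lower and higher counts were 1 and 0 in SPRET (0.654% and 3.05% of all regions), 5 and 1 in PWK (1.62% and 4.28%), 6 and 1 in NOD (3.09% and 4.44%), 12 and 3 in BALB (2.09% and 4.43%) and 11 and 6 in C57 (3.23% and 5.26%). Single libraries decided these counts. Without the C57 basal library 1 there were 13 lower and 13 higher ISG regions in C57 (10.02% and 4.63% of all regions), and the median log2 ratio of the 114 ISG regions was 0.03, against -0.84 with all libraries. Lower and higher ISG counts in C57 were 65 and 3 without the 24 h library 1 (11.1% and 4.32% of all regions). They were 16 and 5 without the 24 h library 2 (10.5% and 3.30%) and 59 and 2 without the basal library 2 (7.46% and 4.13%). BALB had 52 and 1 without the 24 h library 1 (17.3% and 2.09%) and 12 and 2 without the 24 h library 2 (3.72% and 4.53%). NOD had 44 and 0 (9.52% and 3.72%) and 4 and 1 (5.95% and 3.49%) in the same order. PWK had 21 and 0 without the 24 h library 1 (6.61% and 3.76%) and 6 and 5 without the basal library 1 (5.34% and 3.74%). SPRET had 1 and 3 without the 24 h library 2 (2.01% and 3.66%) and 1 and 1 without the basal library 1 (0.952% and 2.81%).

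The C57 time course shares its basal and 24 h H3K27ac libraries with the comparison above. Lower regions were most numerous at 1 h over all regions as well as at ISGs. At 1 h 14 of 124 regions were lower and 0 higher, against 8.36% and 1.37% of all 77955 regions. At 6 h 4 were lower and 2 higher (2.46% and 2.67%), and at 24 h 2 were lower and 0 higher (0.327% and 1.13%). The 3 times share the basal libraries. The median ISG difference was -0.94 at 1 h (all regions -0.63), -0.45 at 6 h (-0.14) and -0.76 at 24 h (-0.22). The 1 h libraries had 44.0% and 20.5% of their tags in regions against 69.7% and 63.8% in the basal ones, and with median-ratio scaling 0 regions were lower and 1 higher at 1 h. The antiviral effectors held 12 of the 14 lower regions at 1 h, and Ifitm3 alone held 6.

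The largest early fall was at the Ifitm3 promoter, which went from 834 and 575 normalized tags to 100 and 113 at 1 h, 118 and 270 at 6 h and 288 and 136 at 24 h. Its difference was -2.69 at 1 h (SE 0.60, adjusted p = 0.0176) and -1.80 at 24 h (adjusted p = 0.138). The Oasl1 region 6399 bp upstream fell from 33.9 and 46.4 to 6.18 and 5.85 at 1 h and stayed at 8.49 and 11.2 at 24 h. Further falls at 1 h were at the promoters of Dhx58 (-1.97, adjusted p = 0.0439), Mx1 (-2.30, adjusted p = 0.0396), Isg20 (-2.18, adjusted p = 0.0436) and Oas2 (-1.93, adjusted p = 0.0455). The Irgm2 region 24904 bp downstream also fell (-2.06, adjusted p = 0.0392), and the Cxcl10 region 4919 bp upstream stayed just above the threshold (-1.96, adjusted p = 0.0619). At 24 h the Ifi47 promoter, of an IRG, fell from 103 and 112 to 18.7 and 23.6 (-2.30, SE 0.53, adjusted p = 0.0362), and the Cxcl10 region 19713 bp upstream fell by 2.31 at 6 h and 2.78 at 24 h (adjusted p = 0.0459 and 0.0388). The Irf7 promoter at 407 bp had a difference of -1.73 at 24 h (adjusted p = 0.265), with treated libraries of 135 and 21.

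Both regions that passed the test as higher in the time course were distal and had low basal tags. The Rtp4 region 2466 bp upstream, with the STAT6 site shown above, went from 2.71 and 1.43 to 27.8 and 6.20 at 1 h, 24.6 and 30.4 at 6 h and 15.3 and 2.63 at 24 h. Treated libraries were above the basal ones at 1 and 6 h, and the difference passed the test at 6 h (3.24, SE 0.76, adjusted p = 0.0194). A region 12844 bp upstream of Mx1 went from 2.04 and 0.71 to 10.8 and 5.51 at 1 h and 12.3 and 10.95 at 6 h (2.47, adjusted p = 0.0275), and was at 10.2 and 9.19 at 24 h. Both regions held a STAT6 peak in C57 at 1 and 6 h and none in the basal or 24 h list. The Irgm1 region 13548 bp downstream (1.88 at 6 h, adjusted p = 0.102), the Usp18 region 15749 bp upstream (1.44, adjusted p = 0.194) and the Zbp1 region 10839 bp upstream (2.24 at 24 h, adjusted p = 0.109) did not pass.

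**Figure D5:**
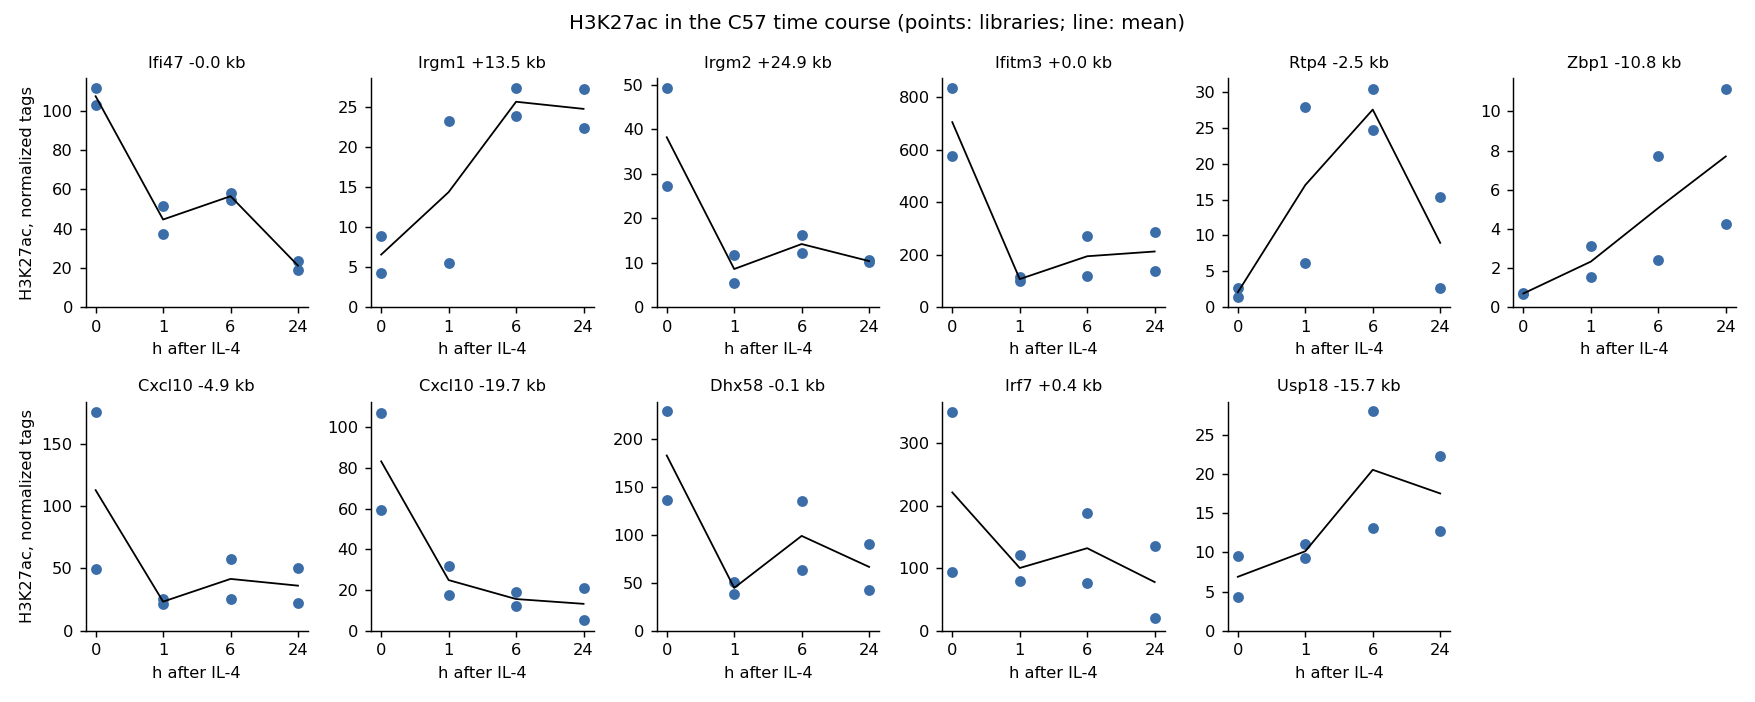
H3K27ac in normalized tags at 0, 1, 6 and 24 h of IL-4 in C57 (points are 2 libraries per time, lines join the means) at the ISG regions with the largest changes. The Ifitm3 promoter goes from 834 and 575 to 100 and 113 at 1 h, and the Rtp4 region 2.5 kb upstream goes from 2.71 and 1.43 to 24.6 and 30.4 at 6 h.

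Single libraries decided the time-course calls. At 1 h the 14 calls became 3 and 0 without basal libraries 1 and 2, 28 and 5 without 1 h libraries 1 and 2, and 2 without either 6 h library. At 6 h the 6 calls became 0 without basal library 2 or either 6 h library and 13 and 12 without 1 h libraries 1 and 2. At 24 h the 2 calls became 0 without basal library 1, either 6 h library or 24 h library 2, 1 without basal library 2 or 24 h library 1, and 6 and 5 without 1 h libraries 1 and 2, and edgeR called 0 of 124 (926 of all regions, and 33 ISG regions at an unadjusted p under 0.05). Named calls went the same way. With median-ratio scaling the Cxcl10 region 19713 bp upstream lost its calls at 6 h (adjusted p = 0.0932) and 24 h (0.0812). The 1 h calls of the Dhx58 promoter (0.189) and the Irgm2 region (0.249) were lost with it too. The Cxcl10 calls were also lost with a filter on the mean at 6 h (0.0509) and in edgeR at 24 h (0.0605). Each of these calls was lost without some single libraries as well. The Ifitm3 promoter call was lost without either basal library (adjusted p = 0.0808 and 0.110) and with median-ratio scaling (0.0563), and that of Rtp4 without basal library 2 or either 6 h library (0.0781, 0.170 and 0.180). The Ifi47 call was lost without either basal, 6 h or 24 h library (0.0936 to 0.205) and in edgeR (0.0517).

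Pol II fell at a region 2221 bp upstream of Ifitm3, from 39.3, 78.6, 68.1 and 55.7 in the 4 basal libraries to 10.4 and 10.7 at 6 h and 18.01, 11.8 and 16.7 at 24 h, with 3.55 in the single 1 h library. Treated values lay below all basal ones (-2.36, SE 0.43, adjusted p = 0.0191 at 6 h and -1.87, SE 0.38, adjusted p = 0.0290 at 24 h). It was the 1 lower ISG region at each time, against 0.137% lower and 0.428% higher at 6 h and 0.174% lower and 0.503% higher at 24 h among all regions. The 6 h count became 2 without basal library 1 and 0 without basal library 2, 3 or 4 or either 6 h library, and the 24 h count 0 without basal library 2, 3 or 4 or 24 h library 1 or 2.

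In C57, STAT6, the factor that IL-4 activates, already had peaks at most ISG regions before treatment. In C57 37 of the 49 matched ISG regions overlapped a basal STAT6 peak (75.5%, against 60.0% of all matched regions) and 34 a peak at 24 h (69.4%, against 65.2%). Of the 26 ISG regions with lower H3K27ac, 24 held a basal STAT6 peak (92.3%, against 79.3% of all 8597 lower regions) and 19 a peak at 24 h (73.1%, against 75.4%). Peaks of STAT6 near ISGs numbered 52 in the basal list and 57 at 24 h, of which 22 overlapped no basal peak, against 41.2% of all 24 h peaks, and 17 basal ones were not found at 24 h (32.7%, against 24.0%). Genes with a lost STAT6 peak in C57 were Cxcl10, Dhx58, Gbp3, Gbp5, Ifit2, Ifitm3, Irf7, Isg15, Isg20, Mx2, Rsad2 and Trim30a. Other strains differed. Near ISGs PWK had 11 basal STAT6 peaks and 48 at 24 h, with 38 gained (67.2% of all peaks) and 1 lost (9.44%). BALB gained 9 of 18 (51.5% of all peaks) and lost 12 of 21 (30.6%). NOD gained 15 of 27 (39.5%) and lost 15 of 27 (39.6%). SPRET gained 22 of 44 (44.4%) and lost 12 of 34 (29.5%). The falling Cxcl10 region 19713 bp upstream and the Ifitm3 region 12747 bp downstream held a STAT6 peak in the basal and 24 h lists of each of the 5 strains. The Usp18 region 15752 bp upstream, which rose, did so too except in the basal SPRET list.

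In C57, EGR2, a factor induced by IL-4, had few basal peaks at ISGs. Its C57 peaks overlapped 2 of 49 ISG regions before treatment (4.08%, against 21.9% of all regions) and 22 at 24 h (44.9%, against 55.8%). Near ISGs 37 of 41 C57 EGR2 peaks at 24 h overlapped no basal peak, against 72.5% of all EGR2 peaks. This differed by strain. BALB gained 9 of 41 (36.3% of all) and NOD 4 of 18 (11.1%). PWK gained 13 of 15 (67.4%) and SPRET 28 of 41 (72.6%). Basal EGR2 peaks near ISGs numbered 40 in BALB, 26 in NOD, 3 in PWK and 13 in SPRET. In the C57 time course EGR2 peaks near ISGs numbered 4 in the basal list, 18 at 1 h, 20 at 6 h and 41 at 24 h. PPARg, an IL-4 induced nuclear receptor, gained 50 of 58 in C57 (84.0% of all PPARg peaks), among them a peak near Cxcl9, 5251 bp downstream of its start. PU1, the lineage factor of macrophages, gained 20 of 131 in C57 (18.9%), and CEBPb gained 30 of 57 there (53.8%). Near Cxcl9 PU1 peaks were lost in C57, BALB and PWK. PPARg peaks were gained there in NOD and SPRET as well, and a CEBPb peak in PWK. The C57 lists differ in length, and the basal and 24 h lists were also cut to the same number of peaks. The gained peaks were then 6 of 8 for EGR2 (23.9% of all), 4 of 6 for PPARg (44.7%) and 3 of 25 for CEBPb (20.5%). Lists stand for a group, so these counts have no replicate error.

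Other genes of interferon signalling were counted in the same model. Of 25 genes for receptors, kinases, sensors and transcription factors, 22 had 65 matched regions, of which 23 were lower and 7 higher in H3K27ac (28.1% and 7.27% of all regions), with a median of -0.41 against -0.32 over all regions. Lower regions included 3 distal regions and the promoter of the type I interferon receptor gene Ifnar2 (promoter -0.88, adjusted p = 0.00180). Higher regions were in Jak2, Irf2, Samhd1 and Socs1, a feedback inhibitor that is also an IL-4 target (promoter at -987 bp 2.97, adjusted p = 1.3e-07). In Pol II 8 of the 65 were higher and 10 lower (7.58% and 7.16% of all regions). A list of 12 known IL-4 targets served as a check of the treatment: of 33 matched regions of 10 genes, 22 were higher and 0 lower in H3K27ac and 27 higher and 0 lower in Pol II, with medians of 1.21 and 1.34.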

How the data were processed

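BMDMs of 5 strains were analysed from 95 ChIP-seq libraries with a column of their own and 54 factor peak lists. The signal values were deposited as tags in 1000 bp regions around reproducible open chromatin peaks, and per the file headers were divided by the library total and scaled to 10000000 tags. The authors aligned reads with Bowtie2 to genomes made for each strain, shifted positions to mm10 and counted tags with HOMER. Peak lists, 1 per group, were deposited with a rank score and a tag count score, so replicates are pooled in them. Library totals ran from 4691644 to 29050468, so that 1 normalized tag stood for 0.469 to 2.91 reads, and whole reads were recovered for 100% of values (tolerance 0.1 reads). Among 71 replicate pairs at most 0.914% of values were identical.

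Regions of the strains were matched to the C57 table by nearest centre within 500 bp. Values were tested as log2(normalized tags + 1) with limma 3.58.1 in R 4.3.3 (trended variance, Benjamini-Hochberg adjustment over all regions of the fit, threshold 0.05), after checks on simulated data, and fold changes on this scale understate those of low regions. Peaks were compared with bedtools 2.31.1 (overlap of 1 bp or more). Same-numbered libraries were taken as pairs where every correlation of their deviations exceeded 0.1, which held in the fit over strains for H3K27ac (0.316 to 0.589), H3K4me2 (0.113 to 0.387) and Pol II (0.132 to 0.532). The main fits did not use this pairing. It enters only the results given with the replicate block, so other SEs, adjusted p-values and calls ignore it. Per library values were printed for the 4 promoters and 4 distal regions with the largest falls, those that rose, the 3 regions with the smallest strain p and the largest change of each role at each time. Alternatives were edgeR 4.0.16 on whole reads, median-ratio scaling, other pseudocounts, filters and matching distances, a replicate block and leaving out each library. The members, lists and tests were chosen with earlier results of these data known. Mx2, annotated as a polymorphic pseudogene, was given its annotated start. Tag count tables of Egr2 knockout cells and of tags around EGR2 peaks were not used here, while the EGR2 peak lists were.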

Additional observations from a re-analysis of the deposited data

How the results depend on the processing

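For H3K27ac over 5 strains the 28 calls became 16 with median-ratio scaling and 20 to 33 when single libraries were left out. The test between strains gave 0 calls without any 1 library and 3 with the replicate block. Pol II calls (14) became 29 with the replicate block and 8 to 16 without single libraries. H3K4me2 calls (42) became 1 with median-ratio scaling and 39 to 48 without single libraries. H3K4me3 calls (16) became 5 with median-ratio scaling, 28 with the replicate block and 8 to 29 without single libraries. The numbers of H3K4me3 (correlation down to 0.0217) and of the time course (down to 0.0140 for H3K27ac and 0.0526 for Pol II) were not taken as pairs. In the time course the replicate block gave 47 H3K27ac calls at 1 h, 21 at 6 h and 18 at 24 h and 3 and 5 Pol II calls at 6 and 24 h, median-ratio scaling gave 1, 2 and 1 for H3K27ac and 2 for Pol II at 6 h, a filter on the mean gave 1 at 6 h and edgeR 0 at 24 h. Without single libraries these counts ran from 0 to 28, 0 to 13 and 0 to 6 for H3K27ac and 0 to 2 and 0 to 1 for Pol II. Fold-rule counts given next join lower and higher regions. Median-ratio scaling gave 17 regions in C57, 15 in BALB and 7 in NOD. A pseudocount of 5 gave 7 in NOD and 0 in SPRET, and no filter gave 2 in SPRET. Without single libraries the counts ran from 21 to 68 in C57, 14 to 53 in BALB, 5 to 44 in NOD, 7 to 21 in PWK and 1 to 4 in SPRET. Equal list lengths gave 6 gained EGR2 peaks, 4 for PPARg and 3 for CEBPb. The Gbp5 promoter value ran from -0.0943 to 0.3352 without single libraries and was negative in 6 of these cases. Among the regions given per library by the stated rule, 31 of the values without a single library lost the call, and median-ratio scaling ended 6. The 7 further promoter regions that lost it with this scaling are those of Xaf1, Cmpk2, Isg20, Gbp3, Irf9 and Irf7. The replicate block moved H3K27ac from 28 to 38 calls and left H3K4me2 at 42. The causes were not tested. Low tags at Rtp4, Mx1 and the Cxcl10 promoter limit those values.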
